A study of Mus musculus with 6 samples.

Results

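The core loop of the circadian clock was described here in mouse lung as 10 genes out of 56262 in the count table, chosen by name as the known activators and repressors of the loop, with earlier results of these data known. They were 3 activators (Arntl, Clock and Npas2) and 7 repressors (Per1, Per2, Per3, Cry1, Cry2, Nr1d1 and Nr1d2), and all 10 passed the filter on low counts that left 17120 genes to be tested. R/R mice were homozygous for 2 substitutions in RBM47, K329R and K332R, made by CRISPR/Cas genome engineering in the germline on a C57BL/6 background, and WT mice were their littermates. RBM47 is an RNA-binding protein, and both lysines were replaced to remove sites to which the ubiquitin-like protein ISG15 is attached. Lung tissue of 3 untreated R/R mice and 3 untreated WT mice, all 8 weeks of age, was sequenced. The animals were kept on a 12-hour light/dark schedule with lights on at hour 6 and off at hour 18, and the hour at which the lungs were collected was not given in the sources used here.

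The clock of mammalian cells is a loop of transcription that takes about a day to complete. BMAL1, the protein of Arntl, pairs with CLOCK or with its relative NPAS2 and switches on the Per, Cry and Nr1d genes from DNA elements called E-boxes, and the PER and CRY proteins then enter the nucleus and block that pair. The REV-ERB proteins of Nr1d1 and Nr1d2 silence Arntl, Npas2 and, less strongly, Clock through ROR response elements. Transcripts of Arntl and Npas2 therefore peak at other hours than those of the Per and Nr1d genes, in lung as in other tissues.

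The elements through which the loop closes on its own genes can be read in the promoters. RefSeq windows on GRCm38.p6, from 250 bases before to 50 after a transcript start, were found for 9 of the 10 genes (13 windows), and Per2 had no entry. They were searched on both strands for the E-box CACGTG, the E'-box CACGTT, the D-box TTATGTAA or TTACGTAA, which binds Dbp, Tef, Hlf and Nfil3, and the core of the ROR response element, TAGGTCA or TGGGTCA. The 30 bases around every match are shown 5′ to 3′ on the strand of the gene, with the matching letters in capitals. An E'-box on the opposite strand reads AACGTG, and no match shared bases with another.
Arntl ROR element core (chr7:113207529-113207558, + strand): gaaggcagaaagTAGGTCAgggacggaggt
Per1 E-box (chr11:69098771-69098800, + strand): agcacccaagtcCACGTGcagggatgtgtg
Per3 D-box (chr4:151044852-151044881, - strand): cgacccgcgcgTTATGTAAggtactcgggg
Per3 D-box (chr4:151044805-151044834, - strand): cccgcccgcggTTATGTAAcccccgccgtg
Cry1 E-box (chr10:85185097-85185126, - strand): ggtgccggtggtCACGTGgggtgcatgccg
Cry1 E'-box (chr10:85185116-85185145, - strand): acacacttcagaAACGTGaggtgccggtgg
Cry2 E'-box (chr2:92434218-92434247, - strand): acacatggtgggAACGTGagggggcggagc
Nr1d1 E'-box (chr11:98775388-98775417, - strand): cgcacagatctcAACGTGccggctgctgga
The ROR element core of Arntl began 31 bases after the start, and the E'-box of Nr1d1 began 28 bases before it. The paired D-boxes of Per3 began 205 and 158 bases before its start. Among 32851 promoter windows of all genes, 7.15% held the E-box, 4.68% the E'-box, 1.06% the D-box and 6.45% the ROR element core. The windows of Clock, Npas2 and Nr1d2 held none of these letters. A match describes the window and says nothing of whether a protein binds there.

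The counts on all genes summed to 16815020 to 18071818 read pairs a lung in R/R and to 16501092 to 18141067 in WT. Values are given as CPM, counts relative to the library total scaled by the TMM method of edgeR, always in the order of replicates 1, 2 and 3, with lungs called R/R 1 or WT 1 by genotype and replicate. On this scale 3 counts corresponded to 0.165 to 0.182 CPM, and SDs are over 3 lungs. Rbm47 itself, whose coding change does not remove the transcript, was measured at 32.6, 33.5 and 34.0 CPM in R/R lungs and 28.7, 30.4 and 34.4 CPM in WT lungs. This log2 difference of 0.10 did not pass the test (edgeR quasi-likelihood test, Benjamini-Hochberg adjusted p = 0.660). The tissue label was borne out by surfactant and other alveolar type 2 transcripts, which summed to 25211 to 26608 CPM in R/R lungs and 19874 to 24794 CPM in WT lungs. The 8 heart muscle markers differed among lungs of the same genotype, with sums of 69.3 to 133 CPM in R/R lungs and 95.1 to 276 CPM in WT lungs. Among them Myh6 was at 3.16, 14.4 and 29.7 CPM in R/R lungs and 56.2, 98.1 and 1.75 CPM in WT lungs. All 7 tested had a lower mean in R/R (median log2 difference -1.17), 0 were called and 0 lay apart without overlap. An unadjusted p under 0.05 was found for 4 of them, where 14.2% of all tested genes had it.

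The loop differed between the genotypes in opposite directions by role. The activators Arntl and Npas2 were lower in R/R lungs, the repressors Per3, Cry2 and Nr1d2 were higher, and the median log2 difference was -0.82 over the 3 activators and 0.49 over the 7 repressors, against 0.005 over all genes tested. In edgeR's quasi-likelihood test at a Benjamini-Hochberg adjusted p of 0.05, 3 of the 10 genes were called higher, where 0.648% of all tested genes were. Another 2 of the 10 were called lower, where 1.10% of all tested genes were. Counting only whether the 3 R/R lungs lay apart from the 3 WT lungs, 4 of the 10 genes (Per3, Cry2, Nr1d1 and Nr1d2) were higher in every R/R lung, as were 9.21% of all tested genes. The 3 activators were lower in every R/R lung, as were 9.47% of all tested genes. The number of called genes rested on single lungs. It was 2 without R/R 2 and 2 without R/R 3 (Npas2 and Nr1d2 in both cases), and 3 without WT 1 (Npas2, Nr1d2 and Per2). These are samples of unsorted lung tissue, so fewer cells that express a gene and less RNA per cell cannot be told apart.

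**Figure D1:**
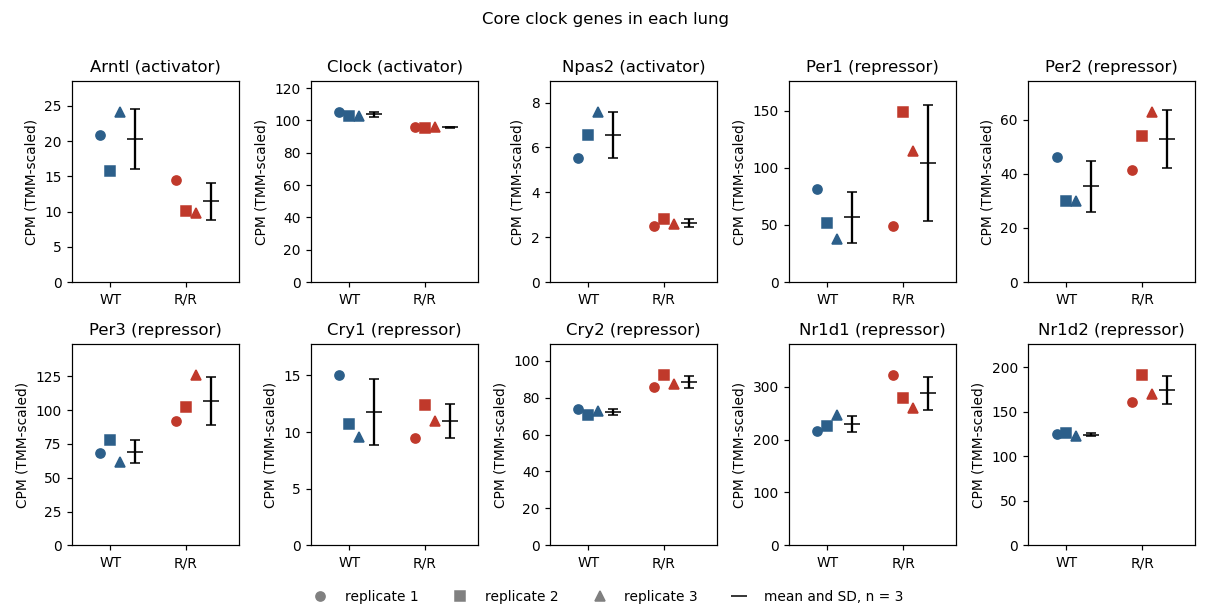
Each panel plots the CPM (TMM-scaled, linear axis from 0) of a core clock gene in 3 WT lungs (blue) and 3 R/R lungs (red), with the replicate number as the symbol and the mean and SD beside each group. All R/R lungs lie below all WT lungs for Arntl, Clock and Npas2 and above them for Per3, Cry2, Nr1d1 and Nr1d2, while Per1, Per2 and Cry1 overlap.

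Among the activators, Npas2 showed the largest difference of all 10 genes. Npas2 (ENSMUSG00000026077.15, chr1:39193731-39363236, + strand) encodes the partner that can stand in for CLOCK. It was measured at 2.49, 2.81 and 2.59 CPM in R/R lungs, against 5.52, 6.56 and 7.60 CPM in WT lungs. The lowest WT lung was above the highest R/R lung by 0.97 on the log2 scale, and the gap is wide beside the scatter among WT lungs. Among R/R lungs, at 44 to 47 counts each, counting error alone exceeds the scatter, which therefore cannot gauge the gap. Mean Npas2 was 2.63 ± 0.160 CPM in R/R (SD, n = 3) and 6.56 ± 1.04 CPM in WT, 2.49-fold lower in R/R. The fitted log2 difference was -1.32 (SE 0.19, 95% interval -1.73 to -0.90, adjusted p = 0.00893), which placed Npas2 at rank 34 of 17120 genes by p-value. These values rest on 44 to 47 counts in each R/R lung and 91 to 130 in each WT lung. Npas2 was called in all 13 alternative fits, each with another tool, scaling or filter, a replicate block or a lung left out.

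Arntl (ENSMUSG00000055116.8, chr7:113207465-113314126, + strand), the gene of BMAL1, was measured at 14.5, 10.03 and 9.82 CPM in R/R lungs. The WT lungs held 20.9, 15.7 and 24.2 CPM. The genotypes did not overlap, but R/R 1 lay only 0.11 on the log2 scale below WT 2. Mean Arntl was 11.5 ± 2.65 CPM in R/R and 20.3 ± 4.28 CPM in WT, 1.76-fold lower in R/R, with a log2 difference of -0.82 (SE 0.18, 95% interval -1.21 to -0.43, adjusted p = 0.0444). The call was lost without R/R 2, R/R 3, WT 1 or WT 3 (adjusted p = 0.179, 0.144, 0.155 and 0.0636) and with limma-voom (0.0578), in a range of 3.23e-09 to 0.179 over 13 alternatives. The low end of this range, and of the ranges below for every gene but Cry1, came from the fit without the filter. In that fit genes had no spread of their own, so its small values are not comparable with the others.

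Clock (ENSMUSG00000029238.11, chr5:76209868-76304792, - strand), the usual partner of BMAL1, scattered least of the 10 genes among these lungs. It was measured at 95.8, 95.2 and 96.1 CPM in R/R lungs and at 105.5, 103.0 and 102.8 CPM in WT lungs. Its coefficient of variation was 0.520% in R/R and 1.46% in WT, where the median over all tested genes, at any depth, was 8.61% and 8.27%. At 1594 to 1869 counts a lung, counting error alone is larger than both values for Clock. The evenness therefore cannot be read as a property of the gene. Every R/R lung was lower than every WT lung by a small amount. The log2 difference of -0.12 (SE 0.05, 95% interval -0.23 to -0.001) did not pass the test (adjusted p = 0.344), nor did it in any of the 13 alternatives.

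The period genes, whose proteins carry the CRY proteins into the nucleus, differed from each other in how far the lungs of a genotype agreed. Per3 (ENSMUSG00000028957.12, chr4:151003652-151044665, - strand) was the only one of them whose genotypes did not overlap, with 91.8, 102 and 126 CPM in R/R lungs and 68.1, 78.2 and 61.5 CPM in WT lungs. Mean Per3 was 107 ± 17.6 CPM in R/R and 69.3 ± 8.41 CPM in WT, 1.54-fold higher in R/R, with a log2 difference of 0.62 (SE 0.11, 95% interval 0.37 to 0.87, adjusted p = 0.0238). Its call was lost without R/R 2, R/R 3 or WT 1 (adjusted p = 0.0745, 0.0627 and 0.0960, in a range of 6.03e-15 to 0.0960 over 13 alternatives).

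Per1 (ENSMUSG00000020893.17, chr11:69095217-69109960, + strand), known to respond within minutes to hormones and other signals as well as to the clock, scattered most. It was measured at 48.6, 149 and 114 CPM in R/R lungs and at 81.3, 51.7 and 37.5 CPM in WT lungs. R/R 1 fell among the WT lungs and below WT 1. The coefficient of variation was 49.1% in R/R and 39.3% in WT, and the log2 difference of 0.87 (SE 0.34, 95% interval 0.14 to 1.61) did not pass the test (adjusted p = 0.257). It passed without R/R 1 (log2 difference 1.21, adjusted p = 0.0326) and without the filter on low counts, in a range of 1.39e-28 to 0.642 over 13 alternatives. The fit without the filter did not take the scatter of Per1 itself into account.

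Per2 (ENSMUSG00000055866.9, chr1:91415982-91459324, - strand), a period gene with a known rhythm in most tissues, was measured at 41.4, 54.2 and 63.1 CPM in R/R lungs and at 46.2, 29.97 and 29.98 CPM in WT lungs. The overlap came from R/R 1, which lay below WT 1, as it also did in Per1. The log2 difference of 0.58 (SE 0.17, 95% interval 0.20 to 0.96) did not pass the test (adjusted p = 0.135), and it passed without WT 1 (log2 difference 0.82, adjusted p = 0.0454) and without the filter, in a range of 1.02e-09 to 0.361 over 13 alternatives.

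The cryptochromes, the repressors that bind the BMAL1 and CLOCK pair directly, did not show the same pattern. Cry2 (ENSMUSG00000068742.11, chr2:92403646-92434043, - strand) was measured at 85.7, 92.3 and 87.6 CPM in R/R lungs and at 73.6, 70.5 and 72.6 CPM in WT lungs, with no overlap. Mean Cry2 was 88.5 ± 3.41 CPM in R/R and 72.2 ± 1.6 CPM in WT, 1.23-fold higher in R/R, with a log2 difference of 0.29 (SE 0.06, 95% interval 0.17 to 0.42, adjusted p = 0.0325). Cry2 was the smallest difference called among the 10 genes. The call was lost when any lung but WT 3 was left out (adjusted p = 0.0534, 0.125 and 0.0780 for R/R 1, 2 and 3, and 0.101 and 0.132 for WT 1 and 2), in a range of 0.00306 to 0.132 over 13 alternatives. Cry2 shares 295 exon bases, 4.67% of its counted length, with the transcript D930015M05Rik on the opposite strand, and the counting used no strand.

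Cry1 (ENSMUSG00000020038.10, chr10:85131700-85185064, - strand), which was the one repressor with a lower mean in R/R, was measured at 9.48, 12.4 and 10.996 CPM in R/R lungs and at 15.04, 10.7 and 9.53 CPM in WT lungs. The genotypes overlapped almost throughout, with R/R 1 and WT 3 the lowest lungs at nearly the same level. The log2 difference was -0.10 (SE 0.17, 95% interval -0.48 to 0.28, adjusted p = 0.859), and without WT 1, the highest lung, it was 0.11 (adjusted p = 0.901, in a range of 0.554 to 0.995 over 13 alternatives). The ratio of Cry1 to Cry2 within a lung, per kb and as a log2 value, was -2.25, -1.97 and -2.07 in R/R lungs and -1.37, -1.80 and -2.01 in WT lungs. The genotypes overlapped in this ratio, so a difference in the balance of the cryptochromes was not resolved with 3 lungs each.

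The REV-ERB genes, which code for nuclear receptors that bind heme and silence Arntl, were both higher in every R/R lung. Nr1d2 (ENSMUSG00000021775.11, chr14:18204054-18239127, - strand) was measured at 161, 191 and 170 CPM in R/R lungs and at 125, 126 and 122 CPM in WT lungs. Mean Nr1d2 was 174 ± 15.4 CPM in R/R and 124 ± 1.87 CPM in WT, 1.40-fold higher in R/R, with a log2 difference of 0.49 (SE 0.07, 95% interval 0.34 to 0.63, adjusted p = 0.00784). Nr1d2 ranked 28 of 17120 genes by p-value, ahead of Npas2, and it was called in all 13 alternatives.

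Nr1d1 (ENSMUSG00000020889.11, chr11:98767932-98775333, - strand) had the highest counts of the loop. It was measured at 322, 279 and 260 CPM in R/R lungs and at 216, 226 and 246 CPM in WT lungs. The genotypes were separated by 0.08 on the log2 scale, between R/R 3 and WT 3. Mean Nr1d1 was 287 ± 31.9 CPM in R/R and 230 ± 15.4 CPM in WT, and the log2 difference of 0.32 (SE 0.08, 95% interval 0.15 to 0.50) did not pass the test (adjusted p = 0.0773). It passed with DESeq2 (adjusted p = 0.00824), without the filter and without WT 3 (0.0336), in a range of 9.27e-05 to 0.288 over 13 alternatives. Nr1d1 shares 263 exon bases, 8.55% of its counted length, with Thra on the opposite strand, and pairs that touched both genes were not counted. Thra, a thyroid hormone receptor gene, was measured at 177, 165 and 156 CPM in R/R lungs and 175, 184 and 170 CPM in WT lungs (log2 difference -0.09, adjusted p = 0.591).

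**Figure D2:**
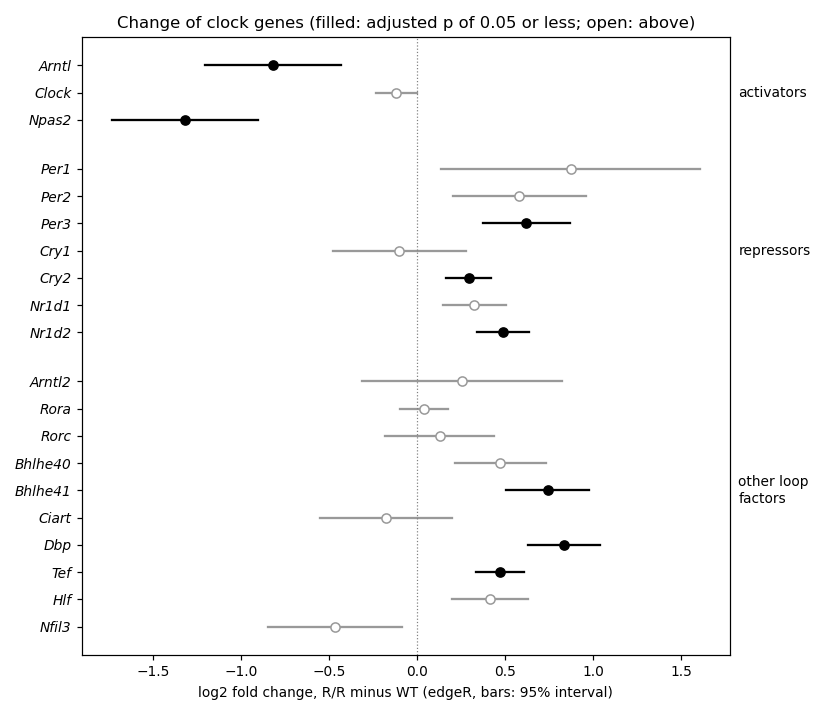
Points show the log2 fold change of each clock gene in R/R against WT lungs from edgeR, with 95% intervals as bars, for the 3 activators, the 7 repressors and the 10 other transcription factors of the loop that were tested. Filled points passed an adjusted p of 0.05: Arntl and Npas2 lie left of 0, and Per3, Cry2, Nr1d2, Bhlhe41, Dbp and Tef lie right of it.

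Per kb of counted exon, the loop spanned a wide range of levels in WT lungs. The length takes in all annotated exons of a gene, whether or not they are used in lung. The order between genes is therefore approximate. Nr1d1 was highest at 74.6 ± 5.01 CPM per kb (SD, n = 3), followed by Nr1d2 at 23.0 ± 0.346, Cry2 at 11.4 ± 0.254, Per1 at 10.1 ± 3.96, Clock at 7.56 ± 0.110, Per3 at 7.21 ± 0.875, Per2 at 6.04 ± 1.6, Cry1 at 3.52 ± 0.870, Arntl at 2.69 ± 0.569 and Npas2 at 1.37 ± 0.217. The neighbours from Cry2 down to Per2 overlapped pair by pair among the 3 lungs, as did Cry1 and Arntl, and only Nr1d1, Nr1d2 and Npas2 stood clear of their neighbours. In R/R lungs the same genes held both ends of the order, Nr1d1 at 93.4 ± 10.4 and Npas2 at 0.549 ± 0.0334 CPM per kb. Clock moved from the fifth place in WT to the seventh in R/R, at 6.97 ± 0.0362 CPM per kb, where every R/R lung held less Clock than Per2 (7.08 to 10.8) and Per3 (9.56 to 13.1). In WT lungs Clock overlapped Per3 (6.40 to 8.14).

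Each activator was then set against each repressor within the same lung, since such a ratio does not depend on how the lungs are scaled to each other. Of the 21 pairs, 16 were lower in all R/R lungs than in all WT lungs, 5 overlapped and 0 were higher. Every activator was already lower, and Per3, Cry2, Nr1d1 and Nr1d2 already higher, in every R/R lung. The ratios between them therefore had to separate and add nothing to the single genes. Npas2 was lower against 7 of 7 repressors, but its ratio was lower without overlap against 93.8% of all other tested genes. Arntl was lower against 5 of 7, where the share over all other tested genes was 65.5%, and Clock against 4 of 7, where that share was 28.6%. The separations of Npas2 and Arntl are thus near what these genes showed against any gene. The share for Clock was larger than its share over all genes, but its 4 separated pairs are those with Per3, Cry2, Nr1d1 and Nr1d2. These separations follow from the single genes, and the 7 ratios have Clock in common. The 5 pairs that overlapped were Arntl with Per1 and Cry1, and Clock with Per1, Per2 and Cry1.

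The ratio of Arntl to Nr1d1, the arm of the loop in which each is known to act on the other, had log2 values of -5.76, -6.09 and -6.01 in R/R lungs. They were -4.66, -5.13 and -4.64 in WT lungs. In every R/R lung there was less Arntl for a given amount of Nr1d1 than in any WT lung, with 0.63 between the nearest lungs. The difference of the means was -1.14, a ratio 2.21-fold lower in R/R (p = 0.1 in an exact two-sided permutation test, the smallest value 3 against 3 lungs allow). Since Arntl and Nr1d1 each lay apart between the genotypes in opposite directions, the separation of their ratio was fixed by the single genes.

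The pairs differed most in how far apart the genotypes lay. The mean difference was largest for Npas2 to Per1, at -2.10 on the log2 scale or 4.28-fold, although Per1 made it scatter (SD 0.77 in R/R and 0.79 in WT, n = 3). The widest clear gap between the nearest lungs was for Npas2 to Per3, at 1.55, with ratios of -4.18, -4.16 and -4.59 in R/R lungs and -2.61, -2.57 and -2.01 in WT lungs. Npas2 to Cry2 was the most even in R/R lungs, at -4.69, -4.63 and -4.67, against -3.33, -3.02 and -2.85 in WT lungs. With 44 to 47 counts of Npas2 in each R/R lung, counting error alone exceeds this spread, so the evenness cannot be read further. Clock, the activator that scattered least, showed the repressors' own spread. Its ratio to Nr1d2 was -2.10, -2.35 and -2.16 in R/R lungs and -1.58, -1.63 and -1.59 in WT lungs, a difference of -0.60 between the means. Its ratio to Cry2 was -0.96, -1.07 and -0.98 in R/R lungs and -0.60, -0.57 and -0.62 in WT lungs, a difference of -0.41. The smallest difference of all pairs was Clock to Cry1, at -0.04, with ratios of 0.90 to 1.29 in R/R lungs and 0.77 to 1.39 in WT lungs.

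**Figure D3:**
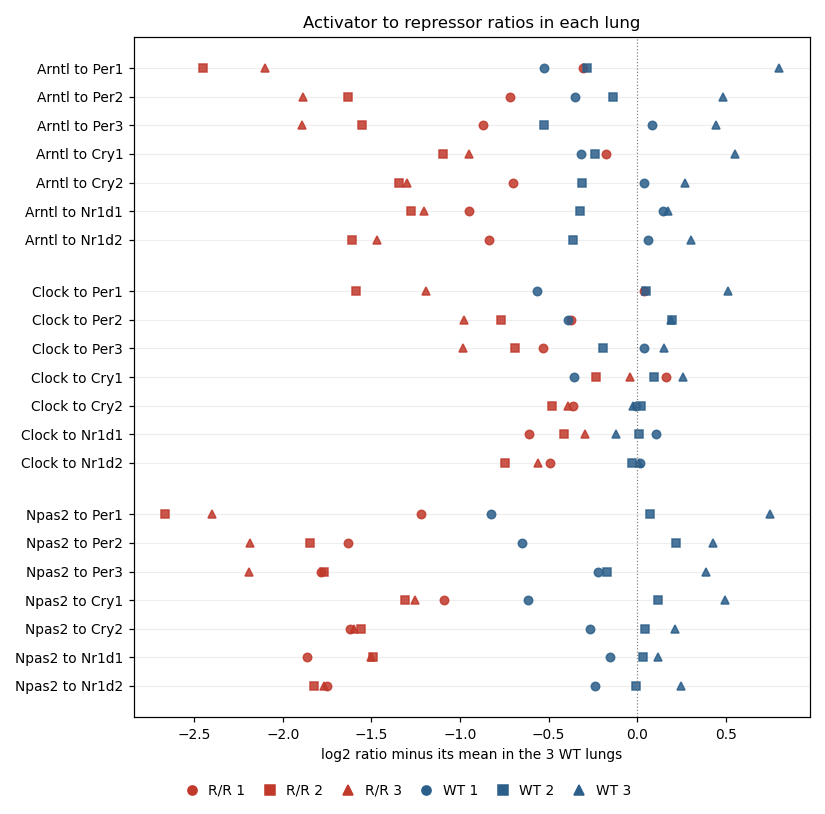
Each row is 1 of the 21 pairs of an activator and a repressor, and each point is the log2 ratio in a lung, on counts per kb, minus the mean of that ratio in the 3 WT lungs (red R/R, blue WT). Red points lie left of all blue points in 16 rows, and in all 7 rows of Npas2, while R/R 1 (red circle) reaches or passes the nearest WT lung in the 5 rows that overlap.

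The lungs of a genotype were not alike in the genes of the loop. Centred on the mean of the 6 lungs (log2 CPM), the activators averaged -0.28, -0.40 and -0.44 in R/R lungs and 0.32, 0.26 and 0.54 in WT lungs. The repressors averaged -0.02, 0.36 and 0.31 in R/R lungs and -0.03, -0.25 and -0.37 in WT lungs. The activators thus separated the genotypes, while the repressor averages of R/R 1 and WT 1 lay next to each other. In R/R 1, Arntl (-0.05) was the highest and Per1 (-0.55), Per2 (-0.04), Per3 (0.11) and Cry1 (-0.24) were the lowest of the 3 R/R lungs, whereas Nr1d1 (0.33) was the highest. Cry2 (0.10), Nr1d2 (0.14) and Npas2 (-0.72, at 44 to 47 counts a lung) were also lowest in R/R 1. Genes of the same role thus did not share an order. In WT 1, Per1 (0.19), Per2 (0.12) and Cry1 (0.42) were the highest of the 3 WT lungs and Nr1d1 (-0.24) the lowest. Nr1d1 and Per2 were therefore ordered in opposite ways over the 3 R/R lungs, and in WT lungs Per2 was highest where Nr1d1 was lowest. Within a lung the ratio of Per2 to Nr1d1, per kb, ran from -3.89 to -2.97 in R/R lungs and from -3.97 to -3.15 in WT lungs, a spread of similar size in both genotypes. The ratio of Nr1d1 to Nr1d2 was 1.81, 1.36 and 1.43 in R/R lungs and 1.61, 1.66 and 1.83 in WT lungs, also with overlap.

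**Figure D4:**
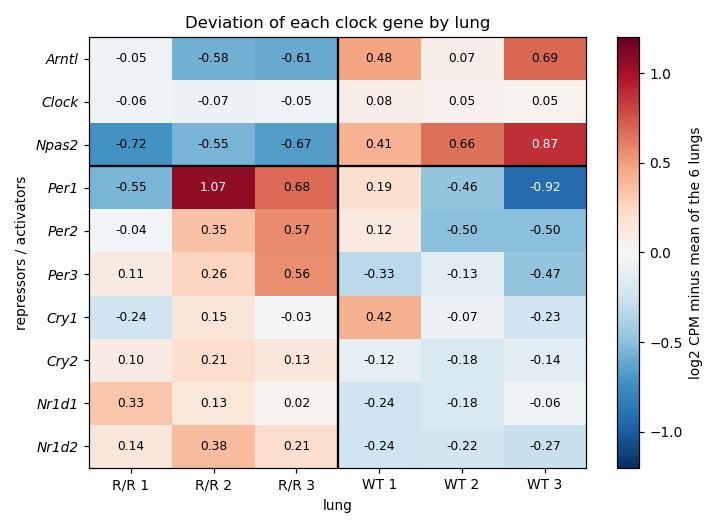
Rows are the 10 core clock genes and columns the 6 lungs, and color and printed value give the log2 CPM of the gene in that lung minus its mean over the 6 lungs. The activator rows change sign between R/R and WT lungs, and in the Per1, Per2 and Cry1 rows R/R 1 (-0.55, -0.04 and -0.24) is below WT 1 (0.19, 0.12 and 0.42).

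The other transcription factors of the loop sit on its side arms, and 10 of 11 listed passed the filter. Of these, 8 had a higher mean and 2 a lower mean in R/R, and the median log2 difference was 0.33. With edgeR 3 were called higher and 0 lower, where 0.648% and 1.10% of all tested genes were. Dbp, an activator at D-boxes such as those of Per3 and itself driven from E-boxes, was measured at 119, 135 and 132 CPM in R/R lungs and at 66.7, 84.6 and 65.3 CPM in WT lungs (log2 difference 0.83, SE 0.09, adjusted p = 0.00193). Tef, of the same family, was measured at 348, 383 and 371 CPM in R/R lungs and 275, 268 and 251 CPM in WT lungs (0.47, SE 0.06, adjusted p = 0.00658). Bhlhe41, a repressor that competes at E-boxes, was measured at 24.2, 19.6 and 23.9 CPM in R/R lungs and 12.8, 13.3 and 14.3 CPM in WT lungs (0.74, SE 0.11, adjusted p = 0.00893). All 3 were higher in every R/R lung, as were 9.21% of all tested genes, and stayed called whichever lung was left out. Hlf (0.41, adjusted p = 0.0645) and Bhlhe40 (0.47, adjusted p = 0.0714), the closest relatives of these genes, were higher in every R/R lung but did not pass the test. Nfil3, which opposes Dbp at D-boxes and is silenced by the REV-ERBs, was measured at 4.82, 4.66 and 5.12 CPM in R/R lungs and 7.28, 5.40 and 7.48 CPM in WT lungs (-0.46, adjusted p = 0.242). Rora, which activates Arntl from the element that the REV-ERBs also bind, differed by 0.04 (adjusted p = 0.838), and Ciart, an E-box repressor, by -0.18 (adjusted p = 0.713). Rorb had 1 to 6 counts in each lung and was not tested.

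The enzymes that modify clock proteins and the co-regulators that work with them were centred near 0. Of 24 kinases, phosphatases and ubiquitin enzymes of the clock, 12 had a higher and 12 a lower mean in R/R, with a median log2 difference of 0.002. With edgeR 0 were called, 2 had an unadjusted p under 0.05, as did 14.2% of all tested genes, and DESeq2 and limma-voom also called 0. Csnk1d and Csnk1e, the kinases that set the stability of PER proteins, differed by -0.02 and -0.01. Of 17 co-regulators, 0 were called with edgeR, DESeq2 or limma-voom and 3 had an unadjusted p under 0.05, with a median of 0.05. The R/R lungs lay above all WT lungs for 4 of the 17 and below them for 5, beside the 9.21% and 9.47% of all tested genes. Cipc, an inhibitor of CLOCK, came nearest (0.28, adjusted p = 0.0807). Of 6 genes known to cycle in many tissues, 1 was called higher, where 0.648% of all tested genes were. It was Tspan4, a tetraspanin, at 68.4, 87.3 and 80.4 CPM in R/R lungs and 61.8, 55.8 and 47.0 CPM in WT lungs (0.52, SE 0.11, adjusted p = 0.0353). That call was lost without R/R 2, R/R 3 or WT 2 (adjusted p = 0.152, 0.101 and 0.0966, in a range of 2.20e-09 to 0.152 over 13 alternatives).

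Other transcripts were summed in the same lungs as a measure of acute signals and of other cells. The 20 immediate early genes tested all had a higher mean in R/R, with sums of 1858, 2346 and 2134 CPM in R/R lungs and 1683, 1742 and 1716 CPM in WT lungs. Nr4a1, an orphan nuclear receptor induced by acute signals, was the 1 of them called higher (0.76, adjusted p = 0.0148), where 0.648% of all tested genes were. An unadjusted p under 0.05 was found for 14 of the 20, where 14.2% of all tested genes had it. DESeq2 called 5 and limma-voom 2, the fit without the filter 12 and that with the replicate block 5. The count was 3 without R/R 1, 7 without WT 3 and 0 without WT 1, where Nr4a1 was lost (adjusted p = 0.0669, in a range of 2.66e-19 to 0.0669 over 13 alternatives). Like Per1, their sum was highest in R/R 2 and lowest of the R/R lungs in R/R 1, but members differed in this order. Klf2, a large part of the sum, was measured at 177, 404 and 335 CPM in R/R lungs, whereas Fos, at 49.6, 35.8 and 32.3 CPM, and Egr1, at 107, 62.3 and 92.7 CPM, were highest in R/R 1. Genes induced by glucocorticoids, to which Per1 also responds, summed to 1015, 1342 and 1045 CPM in R/R lungs and 1032, 905 and 1020 CPM in WT lungs, with R/R 2 again highest and the genotypes overlapping. Here too members differed in order. In R/R lungs Tsc22d3, at 114, 251 and 134 CPM, was highest in R/R 2. Zbtb16, at 53.3, 17.8 and 14.2 CPM, and Fkbp5, at 29.0, 23.3 and 18.3 CPM, were highest in R/R 1. Of 11 tested, 6 had a higher and 5 a lower mean in R/R, 0 were called with edgeR, DESeq2 or limma-voom, and 4 had an unadjusted p under 0.05. With the replicate block 2 were called, without the filter 6, without R/R 1 it was 1 and without WT 3 it was 2. The 7 B cell markers all had a lower mean in R/R and 5 were called lower, where 1.10% of all tested genes were, with sums of 89.5 to 117 CPM in R/R lungs and 160 to 199 CPM in WT lungs. Only 2 of them were called without R/R 2, R/R 3, WT 1 or WT 2. The 8 T cell markers also had lower means, 7 of them without overlap, where 9.47% of all tested genes lay lower without overlap, with sums of 33.4 to 41.7 CPM in R/R lungs and 48.7 to 69.4 CPM in WT lungs. Of these, 0 were called with edgeR or limma-voom and 2 with DESeq2, 5 had an unadjusted p under 0.05, and 2 were called without WT 2 and 5 without the filter. The 9 alveolar type 2 markers all had a higher mean in R/R, with 0 called and 4 at an unadjusted p under 0.05. All 8 endothelial markers and 8 of 9 fibroblast and smooth muscle markers had a lower mean, with 0 called. Of 7 alveolar type 1 markers, 5 had a higher and 2 a lower mean, and 1 was called higher. Club and ciliated markers (4 higher, 3 lower) and myeloid markers (4 higher, 5 lower) were mixed, with 0 called. The part of these transcripts and of the cells they mark in the clock differences was not tested.

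The genes whose profile over the 6 lungs was nearest to that of Arntl were found by the root mean square distance of centred log2 CPM among 14187 genes whose log2 CPM averaged 1 or more. For Arntl these were Mirt1, a long non-coding RNA (distance 0.13), Trac, the constant part of the T cell receptor alpha chain (0.14), and Skint3, of a family related to butyrophilins (0.14). Trac was measured at 5.76, 4.18 and 3.06 CPM in R/R lungs and 7.46, 6.28 and 9.35 CPM in WT lungs, which follows Arntl in having R/R 1 as the highest R/R lung and WT 3 as the highest of all. For Nr1d1 the nearest were Gm13056, a predicted gene (0.04), Enc1, an actin-binding protein gene (0.04), and Mrpl43, of the mitochondrial ribosome (0.05). Enc1 was measured at 45.6, 38.1 and 36.8 CPM in R/R lungs and 31.9, 32.5 and 36.9 CPM in WT lungs. The 10 clock genes themselves were not candidates, none of the 6 genes was in the other clock lists, and with 6 lungs and so many candidates a close match is a description only.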

How the data were processed

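Lung tissue of 3 R/R and 3 WT mice was compared. The authors used HISAT2 2.1.0 to align paired reads of 150 bases to GRCm38 (mm10). The counts that the authors deposited are raw read pairs on each gene from featureCounts 2.0.1, without strand or normalization. The supplement instead names another version of featureCounts and describes the sequencing as stranded. The deposited table was used whole. The submitters' processing notes also name DESeq2, while the supplement names edgeR. Sources differ on RNA extraction (Trizol or RNeasy columns). One count column is recorded under the unit other because its header could not be read by the unit check, and it holds whole counts like the rest. Gene symbols and positions came from a GENCODE annotation of the same assembly (55141 of 56262 identifiers matched) and promoters from RefSeq.

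In R 4.3.3, low genes were removed with filterByExpr (at least 10 counts, total of 15), and the rest scaled by TMM and tested with glmQLFit and glmQLFTest of edgeR 4.0.16, adjusted by Benjamini-Hochberg over 17120 genes and called at 0.05. The SE is the log2 difference divided by the root of F. Ratios used counts per kb with 0.5 added. Mouse numbers are separate animals, so p-values measure the spread between 3 animals a group. Counts per pair of lungs of a genotype differed by 5.64 to 9.02 times the sampling noise, so no lung was a copy. Same-numbered lungs did not deviate together over all tested genes (correlations of -0.015 to -0.003), and no pairing was used in the reported fit. Such correlations cannot exclude pairing in some of the genes. With the replicate number as a block, 446 genes were called, against 300 without it.

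Alternatives were DESeq2 1.42.0, limma-voom (limma 3.58.1), no TMM, upper-quartile factors, other filters and thresholds, a replicate block, other ratio settings and each lung left out. The fits were tested on simulated data. Named genes were the 10 members, Rbm47, genes overlapping a member, called genes of the side-arm and rhythmic lists, and the 3 nearest genes to Arntl and Nr1d1. Others were named after their values were seen. The members and lists were chosen with earlier results of these data known. Depth limits the values of Npas2 most, and a floor of 3 counts covers counting error alone.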

Additional observations from a re-analysis of the deposited data

How the results depend on the processing

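Of the 10 clock genes, 5 were called in the reported fit, 8 without the filter on low counts, 2 at an adjusted p of 0.01 and 2 to 5 when a lung was left out. The 300 genes called of all tested became 529 with DESeq2, 1109 without the filter, 40 at 0.01, 548 at 0.1 and 65 to 621 when a lung was left out. The 4 calls among the other clock lists became 7 with DESeq2, 9 without the filter, 8 at 0.1 and 3 to 5 when a lung was left out. Without the filter, edgeR's estimated prior degrees of freedom were infinite, against 7.66 with it, so genes no longer had a spread of their own; otherwise the cause was not tested. With the replicate number as a block, the same 5 clock genes were called, with 7 calls among the other clock lists and 446 genes in all. The log2 difference of Cry1 turned to 0.11 without WT 1 (range -0.23 to 0.11 when a lung was left out), and the other 9 clock genes kept their direction in all 13 alternatives. Scaling choices moved the median of all genes by at most 0.004. The 16 separated ratios stayed at 16 with 2 counts added or length ignored, and were 16 to 20 when a lung was left out. Npas2 and Nr1d2, and among the other clock lists Dbp, Tef and Bhlhe41, were called in every alternative. The hour of collection was not given in the sources used here, so genotype and hour cannot be told apart.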
